A study of Mus musculus with 3 samples.

Results

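T cells and natural killer (NK) cells carry surface proteins that also turn up on dendritic cells (DC). Expression of 9 genes for such proteins was followed across 3 splenic DC subsets: the coreceptor genes Cd4, Cd8a and Cd8b1, the CD4-related receptor gene Lag3, the costimulatory receptor gene Cd28, the scavenger-domain receptor gene Cd5, the immunoglobulin-domain receptor gene Cd7, and the C-type lectin genes Klrd1 (CD94) and Klrk1 (NKG2D). They were taken by symbol from the array annotation, which gave 15 of 45101 probe sets and 9 of 18194 named genes. All 9 exceeded the background level on at least 1 array, against 11011 of the 18194 genes. The 9 were chosen with earlier results of these data known. This count and the later ones set beside all genes therefore describe the chosen list only.

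Cells came from spleens of healthy, untreated female C57bl/6 mice of 6 to 8 weeks, with no transgene or altered allele named in the labels, and RNA of 5 to 8 animals was pooled for each subset. Magnetic beads removed T and B cells from the mononuclear cells, which were then sorted as plasmacytoid DC (pDC, the interferon-producing subset), CD11b+ conventional DC (cDC) and CD8+ cDC, the antigen-presenting subsets also called cDC2 and cDC1. The antibodies on the beads, and the proteins that defined the pDC sort, are not given in the sources used here. Each subset has 1 array of 20 ng RNA, so no spread between samples exists, no p-value is possible, and pooled animals, sort and hybridization cannot be told apart from the subset.

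Values are the deposited intensities, called signals below. The background level of 111 is the 95th percentile of 87 probe sets for odorant, vomeronasal, trace amine and taste receptors on the array where it was highest. A gene was called higher in a subset at 2-fold or more with the brighter signal above background. Where the dimmer signal lay below that level, the fold is a lower bound, computed against the level and written with "at least". In such pooled RNA, fewer cells of a type and less RNA per cell cannot be told apart.

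As background, CD4 and CD8 on T cells bind MHC class II and class I molecules beside the antigen receptor and bring the kinase LCK to it. CD8 occurs as an alpha-beta dimer on most cytotoxic T cells and is known as an alpha-alpha dimer on the DC subset named after it. LAG-3 is an inhibitory receptor that binds MHC class II, CD28 binds CD80 and CD86, CD5 and CD7 tune antigen receptor signalling, CD94 pairs with NKG2 proteins to read the class I molecule Qa-1, and NKG2D reads stress-induced class I-like ligands.

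The 9 genes fell into a few patterns. On the pDC array 4 of 9 (Cd4, Lag3, Cd28 and Cd8b1) stood 2-fold or more above both other arrays, where 10.4% of all genes above background did. On the CD8+ cDC array 2 of 9 did (Cd8a and Klrk1, against 6.01% of all genes) and on the CD11b+ cDC array 1 of 9 (Cd5, against 5.00%). The CD8+ cDC array stood 2-fold or more below both others at 3 of 9 (Cd4, Cd7 and Klrd1, against 4.34% of all genes). Klrk1 was the 1 member of 9 that stood 2-fold below both others in pDC (8.56% of all genes), and Cd8a the 1 of 9 in CD11b+ cDC (2.98%). Cd8a is the marker that named the CD8+ sort, so its place in these counts was set by the sort and is not read against the share of all genes.

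**Figure D1:**
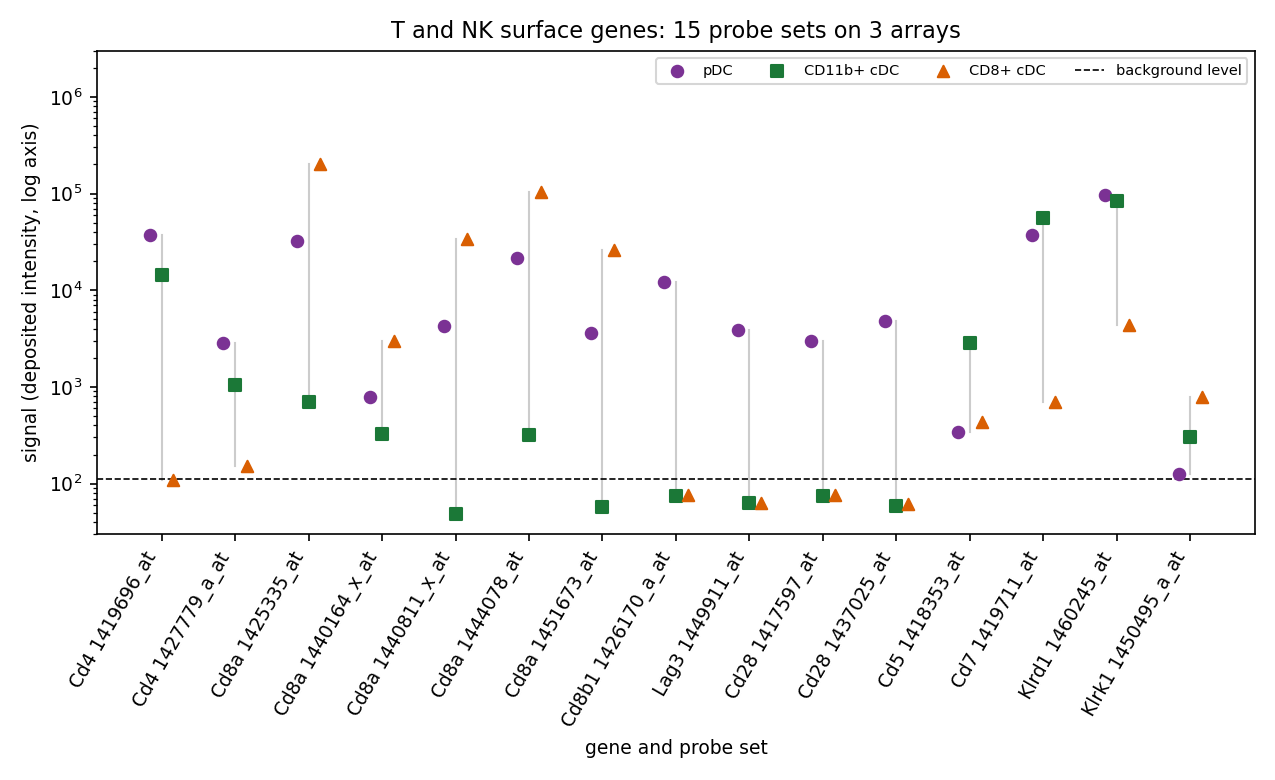
Signal (deposited intensity, log axis) of each of the 15 probe sets of the 9 genes; circles are pDC, squares CD11b+ cDC and triangles CD8+ cDC, with 1 array per subset and the background level of 111 as a dashed line. All 5 Cd8a probe sets are highest in CD8+ cDC, while Cd8b1, Lag3 and Cd28 lie above the line in pDC alone.

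Among the coreceptors, Cd4 was shared by pDC and CD11b+ cDC. At its brighter probe set the signal of Cd4 was 37302 in pDC and 14501 in CD11b+ cDC, against 110 in CD8+ cDC. The dimmer probe set read 2879, 1055 and 153. Both probe sets thus put pDC first and CD8+ cDC last, and the CD8+ cDC value lay just below background at one and just above it at the other. Cd4 was 2.57-fold higher in pDC than in CD11b+ cDC, which called pDC the higher array, and 2.73-fold at the dimmer probe set. Scaling the arrays on the median of housekeeping genes brought the difference to 0.94 (log2) and ended that call. Scaling instead on the median deviation of those genes, each centred on its mean over the arrays, gave 1.92 and kept it. Against CD8+ cDC, the fold of Cd4 was at least 336 for pDC and at least 130.4 for CD11b+ cDC, and the dimmer probe set gave 18.8-fold and 6.89-fold. Of all genes above background on either array, 0.176% differed as far toward pDC and 0.0467% as far toward CD11b+ cDC.

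Cd8a, encoding the CD8 alpha chain, follows the marker that named the CD8+ sort, so its height in CD8+ cDC is no finding. Its brightest probe set read 203567 in CD8+ cDC, with 32230.5 in pDC and 702 in CD11b+ cDC. The pDC sort is not named for CD8, and there Cd8a stood 45.9-fold above CD11b+ cDC and 6.32-fold below CD8+ cDC. All 5 probe sets called the same order. Their fold of pDC over CD11b+ cDC ran from 2.42 to 67.4, and their fold of CD8+ cDC over pDC from 3.80 to 7.80. The fold of CD8+ over CD11b+ cDC spread from 9.21 to 324, the lowest of each of these 3 ranges coming from the dimmest probe set, whose signals were 784, 323.5 and 2980 in pDC, CD11b+ cDC and CD8+ cDC.

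Cd8b1, encoding the beta chain, went another way than its partner. Its 1 probe set read 12161 in pDC, against 74.7 in CD11b+ cDC and 76.9 in CD8+ cDC. The signal was above background in pDC alone, at least 109-fold higher than in either cDC subset. On the CD8+ cDC array the alpha chain gene was thus at its highest while the beta chain gene lay below background, whereas pDC gave signal for both. With 1 probe set for Cd8b1, no second reading of that contrast exists on the array.

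Promoters are shown for Cd8a, Cd5 and Klrk1, the members that the reference table held. Cd8a gave signal in pDC and CD8+ cDC beside a neighbour, Cd8b1, that is not above background in CD8+ cDC. Cd5 and Klrk1 peaked on different cDC arrays. Sequences are from RefSeq, build GRCm38.p6, and cover the 250 bases before the annotated start, 5′ to 3′ on the gene's strand, with matches to the searched motifs in capitals. The reference table matched 3 of the 9 genes.
Cd8a promoter, chr6:71373177-71373426, plus strand: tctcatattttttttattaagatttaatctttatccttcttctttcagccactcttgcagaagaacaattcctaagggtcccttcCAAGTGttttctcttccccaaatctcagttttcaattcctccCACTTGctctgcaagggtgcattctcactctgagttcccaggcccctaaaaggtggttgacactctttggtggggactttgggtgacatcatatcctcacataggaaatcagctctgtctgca
Klrk1 promoter, chr6:129623865-129624114, minus strand: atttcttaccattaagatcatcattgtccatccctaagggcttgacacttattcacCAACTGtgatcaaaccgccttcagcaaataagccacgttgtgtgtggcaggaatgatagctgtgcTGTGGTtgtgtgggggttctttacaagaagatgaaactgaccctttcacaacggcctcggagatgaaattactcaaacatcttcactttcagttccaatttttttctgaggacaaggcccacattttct
Cd5 promoter, chr19:10738975-10739224, minus strand: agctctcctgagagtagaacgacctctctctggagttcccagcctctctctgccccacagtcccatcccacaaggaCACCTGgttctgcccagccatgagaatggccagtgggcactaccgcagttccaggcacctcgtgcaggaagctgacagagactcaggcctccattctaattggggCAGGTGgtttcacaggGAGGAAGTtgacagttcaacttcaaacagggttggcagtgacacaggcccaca

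In these windows 5 motifs were searched on both strands. The E-box CANNTG, which E proteins such as TCF4 are known to bind, occurred in all 3 windows (Cd8a as CAAGTG and CACTTG, Klrk1 as CAACTG, Cd5 as CACCTG and CAGGTG), and in 66.2% of the 32851 promoters of the same length. The ETS-type motif GAGGAAGT was found before Cd5 alone (2.44% of promoters) and the RUNX-type motif TGTGGT before Klrk1 alone (14.0%). The interferon-stimulated response element (2.98% of promoters) and the AP-1 motif TGANTCA (6.75%) matched in 0 of the 3 windows. None of these motifs overlapped another here, and a match describes letters only.

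Lag3 and Cd28 were read in pDC alone. Lag3 gave 3839.8 in pDC, against 62.7 in CD11b+ cDC and 63.5 in CD8+ cDC. The signals of both cDC arrays lay below background, and pDC was at least 34.5-fold higher than either. Cd28 gave 4830.1, 58.9 and 61.9 at its brighter probe set and 2999, 74.9 and 75.9 at the other, in the same order of arrays. It was at least 43.4-fold higher in pDC than in either cDC subset at the first probe set and at least 27.0-fold at the second. Between the cDC arrays, Lag3, Cd28 and Cd8b1 have no measured difference, since both signals were below background.

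Cd5 peaked in CD11b+ cDC. Its signals were 2832 in CD11b+ cDC, 432.5 in CD8+ cDC and 343.5 in pDC. CD11b+ cDC was 8.25-fold higher than pDC and 6.55-fold higher than CD8+ cDC, and the other 2 arrays differed 1.26-fold, short of a call. Some markers of other cell types were also highest in CD11b+ cDC, while others were not. Of 20 measured monocyte, macrophage and neutrophil genes, all were above background on at least 1 array and 19 in CD8+ cDC. Of the 20, 14 were higher in CD11b+ cDC than in pDC and 13 higher than in CD8+ cDC (1 and 0 lower). Among genes above background on either array, 14.3% and 10.3% were higher in CD11b+ cDC in these pairs. Their summed signal was 50571 in pDC, against 251330.4 in CD11b+ cDC and 105527 in CD8+ cDC. The macrophage gene Adgre1 was 26.7-fold and the receptor gene Csf1r 8.47-fold higher in CD11b+ cDC than in pDC, as were the neutrophil genes S100a8 (8.97-fold) and S100a9 (7.19-fold). Over CD8+ cDC, Adgre1 stood 22.1-fold, Ngp 19.4-fold, S100a8 18.2-fold and Camp 7.76-fold higher. Cd163 was the gene higher in pDC than in CD11b+ cDC (3.31-fold). Between pDC and CD8+ cDC, Cd163, Ngp, Mpo and S100a8 were higher in pDC (2.03-fold to 3.23-fold) and Spic, Vcam1 and Hmox1 in CD8+ cDC (2.86-fold to 3.83-fold). Of 11 measured B cell genes, 6 were above background on any array, with summed signals of 183377, 238978 and 72321. The immunoglobulin gene Ighm (171513, 142572 and 50809 in pDC, CD11b+ cDC and CD8+ cDC) made up most of each sum. Of these 6, 4 were higher in CD11b+ cDC than in pDC and 5 higher than in CD8+ cDC, Cd22 by 95.9-fold and 52.6-fold, Blk by 6.26-fold and 14.7-fold and Cr2 by at least 4.57-fold over either. Cd79b went toward pDC, with 10103 there, 4025.5 in CD11b+ cDC and 380.9 in CD8+ cDC. The B lineage factor Pax5 and Cd79a, the partner of Cd79b, were below background on all 3 arrays, and Ms4a1 was highest in CD8+ cDC (19147, with 11046.5 in CD11b+ cDC and 223 in pDC). The part of these cells in the Cd5 signal was not tested.

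Cd7 was read on all 3 arrays. It gave 55320.1 in CD11b+ cDC, 36986 in pDC and 698 in CD8+ cDC. The CD8+ cDC array was the low one, 79.2-fold below CD11b+ cDC and 53.0-fold below pDC. The gap of 1.5-fold between CD11b+ cDC and pDC was not called, and reached a call only when the arrays were scaled on the median of housekeeping genes. With scaling on the median deviation of housekeeping genes it was -0.03 (log2, pDC minus CD11b+ cDC). Of all genes above background on either cDC array, 0.121% differed as far toward CD11b+ cDC as Cd7.

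The NK lectin genes split. Klrd1 gave 96243 in pDC and 83389 in CD11b+ cDC, but 4413 in CD8+ cDC. The first pair differed 1.15-fold, which is no call, and CD8+ cDC lay 21.8-fold below pDC and 18.9-fold below CD11b+ cDC. Cd4, Cd7 and Klrd1 thus shared the CD8+ cDC array as their low one, with signal above background there for Cd7 and Klrd1. Klrk1, the next gene along the chromosome, ran the other way. Its signals were 793 in CD8+ cDC, 307 in CD11b+ cDC and 126 in pDC, each called different from the next (2.58-fold and 2.44-fold, 6.31-fold between the ends). The pDC signal was close to background, and with the level set at the 99th percentile of the receptor probe sets, which is 412, the calls of Klrk1 ended in all 3 pairs. Scaling on spike-in controls ended the call between the cDC subsets (-0.37 log2 for CD11b+ minus CD8+ cDC), as did scaling on the median of housekeeping genes (-0.18). With scaling on the median deviation of housekeeping genes that call stayed (-1.56), while the Klrk1 call between pDC and CD11b+ cDC ended (-0.74).

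Compared pair by pair, 5 of 9 members were higher in pDC than in CD11b+ cDC (15.0% of 10793 genes) and 2 of 9 lower (14.3%), 4 and 0 of these by 10-fold or more (2.77% and 3.83%). The median log2 difference of the members was 1.36, beside 0.01 for all genes. Against CD8+ cDC, 6 of 9 were higher in pDC (16.0% of 10823 genes), each of them by 10-fold or more (2.99% of genes), and 2 of 9 lower (14.8%, with 3.86% of genes and 0 members lower by 10-fold), with a median of 5.11 beside 0.00. Between the cDC subsets, 6 members had a signal above background on either array. Of these, 4 were higher in CD11b+ cDC (10.3% of 10709 genes) and 2 in CD8+ cDC (9.84%), so every measured member differed 2-fold or more, 3 of them toward CD11b+ cDC and 1 toward CD8+ cDC by 10-fold or more (1.66% and 1.57% of genes). The counts toward CD8+ cDC include Cd8a, set by the sort, and apart from it hold only Klrk1, with no member 10-fold higher there. The pDC array is shared by the first 2 pairs, and so is part of their counts.

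**Figure D2:**
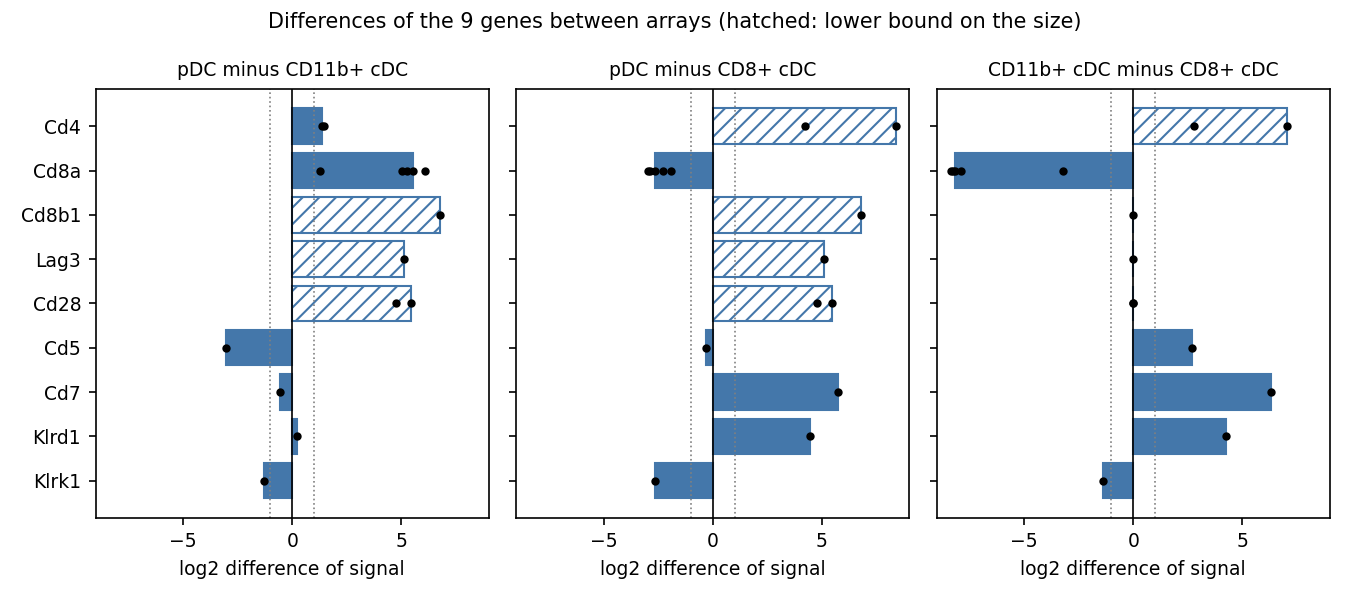
Log2 difference of signal for each of the 9 genes in the 3 pairs of arrays; bars show the probe set with the highest mean signal, hatched bars are lower bounds because the dimmer array lay below background, points are single probe sets and dotted lines mark 2-fold. Cd8a stands at -8.18 and Cd4 at 7.03 between the cDC subsets, while Cd8b1, Lag3 and Cd28 have no measured difference there.

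Error could be gauged only within arrays. In genes read by 2 probe sets, the SD of the gap between their log2 differences was 0.86 when pDC was set against CD11b+ cDC (4826 genes), 0.89 against CD8+ cDC (4842 genes) and 0.74 between the cDC arrays (4795 genes). The second probe set repeated 69.1%, 68.1% and 61.0% of the calls. For Cd4, Cd8a and Cd28, the 3 members with several probe sets, each probe set gave the same calls. The gaps of Cd4 between pDC and CD11b+ cDC (1.36) and of Klrk1 between neighbouring arrays (1.29 and 1.37) lie closer to that SD than the other called differences of members, which ran from 2.66 to 8.39. Probe sets of 1 gene share the RNA and say nothing about animals.

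Genes that T cells express with these members were mostly not seen. Of 19 genes of the T cell receptor and its signalling, 13 were measured and 3 exceeded background. The CD3 chain genes Cd3d, Cd3e and Cd3g, Zap70, Themis, Ubash3a, Trat1, Skap1, Sh2d1a and Bcl11b were below background on all 3 arrays, while the other 6 genes of the list were not analysed here. Above it were Cd247, the CD3 zeta chain gene (138, 137 and 139 in pDC, CD11b+ cDC and CD8+ cDC), the adaptor gene Lat (444, 188 and 267) and Fyb (256286, 141190.0 and 42487.5), an adaptor gene that myeloid cells are also known to express. Cd247 differed by at most 1.01-fold between arrays and lay close to the background level of 111. The summed signal of the 13 genes, 257587, 142243 and 43632, is nearly that of Fyb. The Cd4, Cd8a, Cd8b1, Cd28 and Lag3 signals of pDC were thus read on an array where Cd3d, Cd3e and Cd3g lay below background.

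The NK cell list gave 7 of 16 measured genes above background on any array. Ncr1, a receptor gene of NK cells, and Eomes, Prf1, Gzmb, Nkg7, Il2rb, Klrg1, Txk and Xcl1 were below it on all 3. The summed signal was 2169 in pDC, against 148295 in CD11b+ cDC and 49811 in CD8+ cDC, and Ccl5 made up most of it in both cDC subsets. Of the 7, 4 were higher in CD11b+ cDC than in pDC, 0 lower. Likewise 4 of 7 were higher in CD11b+ than in CD8+ cDC, 0 lower (median log2 difference 1.05), the pair in which Klrd1 was 18.9-fold higher in CD11b+ cDC, and 2 of 5 were lower in pDC than in CD8+ cDC, 0 higher. Among genes above background on either array, the shares in these directions were 14.3%, 10.3% and 14.8%. Ccl5 (131767 in CD11b+ cDC, 808 in pDC, 48201 in CD8+ cDC), the transcription factor gene Tbx21 (13146, 71.4 and 285) and Fasl (1669, 50.6 and 51.2) carried those differences, and Gzma gave 695, 338 and 336. The part of NK cells in the Klrd1 difference between the cDC subsets was not tested. Klrd1 gave its highest signal on the pDC array, where Klra7 (112), Gzma and Ccl5 were the list genes above background.

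**Figure D3:**
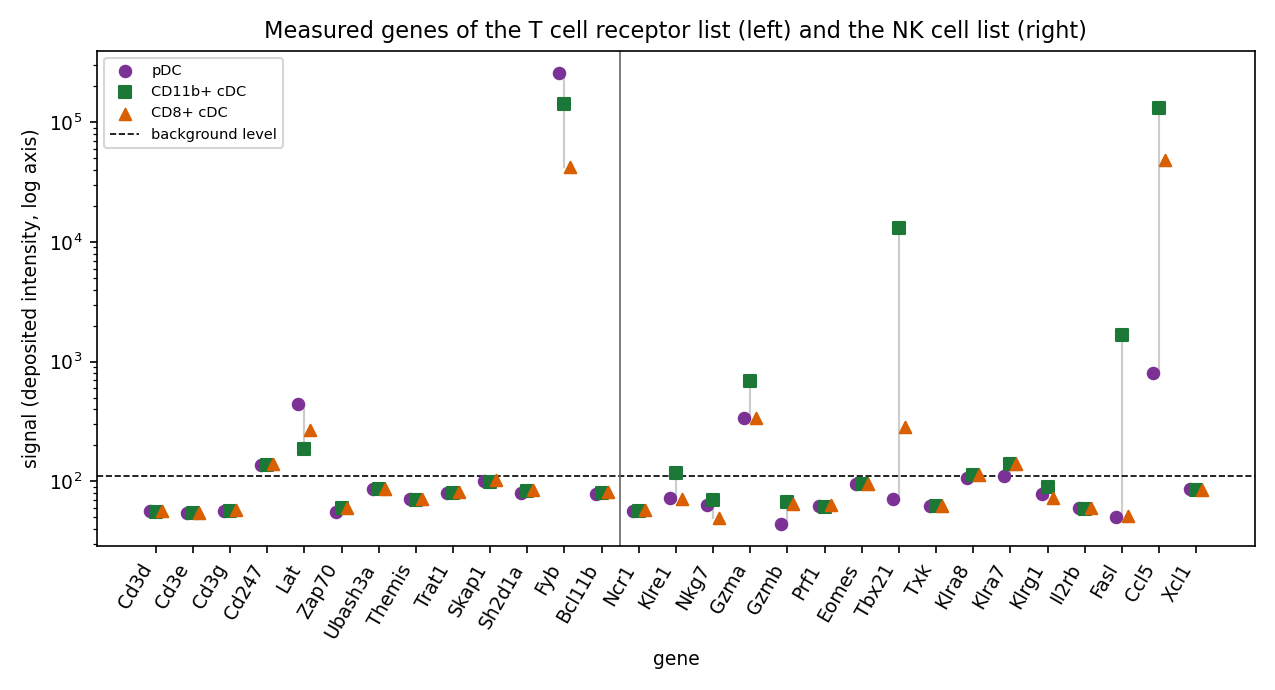
Signal (deposited intensity, log axis) of the 13 measured T cell receptor and signalling genes and the 16 measured NK cell genes on the 3 arrays, with the background level of 111 dashed. Cd3d, Cd3e, Cd3g and Ncr1 lie below the line on all 3 arrays, whereas Fyb, Tbx21, Fasl and Ccl5 reach 1669 or more on at least 1 array.

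Other T cell surface genes were also divided among the subsets. Of 19 measured, 9 exceeded background on any array and Cd2, Cd6, Thy1, Cd27, Pdcd1, Cd226, Il2ra, Cd40lg, Cd160 and Crtam did not. In pDC 6 of 8 were higher than in CD11b+ cDC and 1 lower (median log2 difference 2.35), and 5 of 9 higher than in CD8+ cDC and 3 lower (median 2.66). Among genes above background on either array, the shares were 15.0% and 14.3% in the first pair and 16.0% and 14.8% in the second. The interleukin-7 receptor gene Il7r gave 152617 in pDC, against 5422 in CD11b+ cDC and 2739 in CD8+ cDC. Spn (CD43) was 12.3-fold and 31.6-fold, the activation marker Cd69 15.7-fold and 17.1-fold, and Cd96 at least 7.25-fold higher in pDC than in CD11b+ and CD8+ cDC. On the conventional side, the costimulatory receptor gene Icos gave 13843 in CD11b+ cDC, 17373 in CD8+ cDC and 129 in pDC. The inhibitory receptor gene Btla peaked in CD8+ cDC, 10.6-fold above pDC and 9.91-fold above CD11b+ cDC, and Ctla4 read 380 in CD8+ cDC and was below background elsewhere. Cd200r1 was highest in pDC, 2.52-fold above CD11b+ cDC and 6.30-fold above CD8+ cDC. It was also 2.50-fold higher in CD11b+ than in CD8+ cDC.

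Among lectins of the NK gene complex outside the 9, 15 of 21 measured genes exceeded background on any array. Between pDC and CD11b+ cDC, 3 were higher and 3 lower in pDC of 15 (15.0% and 14.3% of genes above background on either array). Klra17, a Ly49-type lectin, gave 114938 in pDC, against 1162 in CD11b+ cDC and 510.0 in CD8+ cDC. Klrb1f was 15.2-fold higher in CD11b+ cDC than in pDC and 14.8-fold higher than in CD8+ cDC. Clec7a, the beta-glucan receptor gene, gave 22365 in CD11b+ cDC, 3419.1 in CD8+ cDC and 402.7 in pDC, 55.5-fold and 8.49-fold above pDC. Klra5 read 3013 in CD8+ cDC, 185 in CD11b+ cDC and 65.6 in pDC. Clec1b was 2.59-fold and 2.60-fold higher in CD11b+ and CD8+ cDC than in pDC, Clec2d 2.01-fold higher in pDC than in CD11b+ cDC, and Clec2i 4.33-fold and 2.32-fold higher in pDC and CD11b+ cDC than in CD8+ cDC.

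Partners of the members were present unevenly, and some of them, such as Icos, Ctla4 and Klrc1, also stand in the lists above. The NKG2 genes that pair with Klrd1 gave little signal: Klrc2 and Klrc3 were below background on all 3 arrays and Klrc1 read 106, 124 and 109, above it in CD11b+ cDC alone. Hcst, the DAP10 adaptor of NKG2D, read 451, 479 and 263 in pDC, CD11b+ cDC and CD8+ cDC, none of the pairs reaching 2-fold. Tyrobp, the DAP12 adaptor, was 3.95-fold lower in CD8+ cDC than in pDC. The phosphatase gene Ptpn6, which acts below CD5, was 3.90-fold lower in CD8+ cDC than in pDC and 4.08-fold lower than in CD11b+ cDC. The kinase gene Syk was 3.91-fold and 3.42-fold lower there, and the ubiquitin ligase gene Cblb 3.21-fold and 3.71-fold higher. Fyn, a Src kinase gene of T cell signalling, was 12.5-fold and 9.13-fold higher in pDC than in CD11b+ and CD8+ cDC. Of 17 measured partner genes, 14 exceeded background on any array. In pDC 1 of 13 was higher and 1 lower than in CD11b+ cDC (median -0.06), and 4 were higher and 3 lower of 13 against CD8+ cDC (median 0.20). Among genes above background on either array, the shares were 15.0% and 14.3% in the first pair and 16.0% and 14.8% in the second.

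Of 20 measured ligand genes, 14 exceeded background. The MHC class II genes that CD4 and LAG-3 bind differed under 2-fold in each pair (H2-Ab1 at 502865 in pDC, with 695183 in CD11b+ cDC and 765493 in CD8+ cDC), as did H2-K1, H2-D1 and B2m, the class I side. The CD28 ligand genes were high where Cd28 was below background. Cd86 read 70310.3 in CD8+ cDC, 12878 in CD11b+ cDC and 655 in pDC, and Cd80 was 24.6-fold and 22.9-fold higher in CD11b+ and CD8+ cDC than in pDC. Icosl, the ICOS ligand gene, was 8.38-fold and 3.06-fold higher. Lgals3, encoding the LAG-3 binding lectin galectin-3, stood 38.8-fold above pDC in CD8+ cDC, and Clec4g, encoding LSECtin, another such lectin, 27.5-fold lower. Cd72, a proposed CD5 partner, gave 20820.1 in pDC and 11879.5 in CD11b+ cDC, against 213 in CD8+ cDC. The CD7 ligand genes Sectm1a and Sectm1b and the NKG2D ligand genes H60c and Ulbp1 were below background on all 3 arrays. Against CD11b+ cDC, 1 of 14 ligand genes was higher in pDC and 4 lower, and against CD8+ cDC 2 were higher and 4 lower. Among genes above background on either array, the shares were 15.0% and 14.3% in the first pair and 16.0% and 14.8% in the second.

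Regulators known for coreceptor and lymphoid genes were higher in pDC than in CD11b+ cDC for 10 of 28 and lower for 7 (median 0.12), and higher than in CD8+ cDC for 13 of 29 and lower for 6 (median 0.33). Between CD11b+ and CD8+ cDC, 9 of 29 were higher and 4 lower. Among genes above background on either array, the shares higher and lower were 15.0% and 14.3%, 16.0% and 14.8%, and 10.3% and 9.84% in these pairs. Zbtb7b, the ThPOK factor of CD4 T cells, gave 424 in pDC, with 1360.0 in CD11b+ cDC and 746 in CD8+ cDC, an order unlike that of Cd4. Runx3, a factor of CD8 T cells, read 9729.9 in pDC, with 12045 in CD11b+ cDC and 6169 in CD8+ cDC, and did not reach 2-fold in any pair of these. The T cell factors Gata3, Lef1 and Bcl11b and the NK factor Eomes were below background on all 3. Larger differences toward pDC were those of Notch1 (78.8-fold over CD11b+ cDC), Irf8 (55.9-fold), Tcf4 (29.3-fold) and Ets1 (24.9-fold, and 146-fold over CD8+ cDC). Toward CD11b+ cDC stood Batf3 (176-fold), Tbx21 (at least 118-fold), Id2 (43.9-fold) and Zbtb7b (3.21-fold). Zeb2 was 53.8-fold higher in pDC than in CD8+ cDC, where Batf3 (219-fold), Id2 (71.8-fold), Rbpj (3.41-fold) and Runx1 (2.94-fold) were above pDC. Between the cDC subsets Tbx21 (46.1-fold), Irf4 (13.7-fold), Zeb2 (9.43-fold) and Tox2 (at least 5.95-fold) were higher in CD11b+ cDC, and Irf8 (46.3-fold), Nfil3 (3.80-fold), Myb (3.07-fold) and Notch1 (2.15-fold) in CD8+ cDC.

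By the order of genes in the reference annotation, 6 of the 9 members form 3 neighbouring pairs on chromosome 6: Cd8b1 with Cd8a, Cd4 with Lag3, and Klrd1 with Klrk1. In each pair the members differed in pattern. Cd4 was above background in CD11b+ cDC at 14501 where Lag3 read 62.7, and both peaked in pDC. Of the flanking genes, Gnb3 and Gpr162 were below background on all 3 arrays and P3h3 was above it in pDC alone (131). Ptms (3411, 3075 and 2217 in pDC, CD11b+ cDC and CD8+ cDC), Mlf2 and Cops7a stayed under 2-fold in each pair. Around Cd8b1 and Cd8a, Gm1070 was below background on all arrays and Krcc1 and Rnf103 stayed under 2-fold. Rmnd5a, next to Cd8a, was 2.07-fold higher in pDC than in CD11b+ cDC, Chmp3 2.57-fold higher in CD8+ than in CD11b+ cDC, and Smyd1 was above background in pDC alone (268). Beside Klrd1, Klre1 read 118 in CD11b+ cDC and was below background elsewhere, and Gabarapl1, a place further, was 3.51-fold higher in pDC than in CD11b+ cDC.

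**Figure D4:**
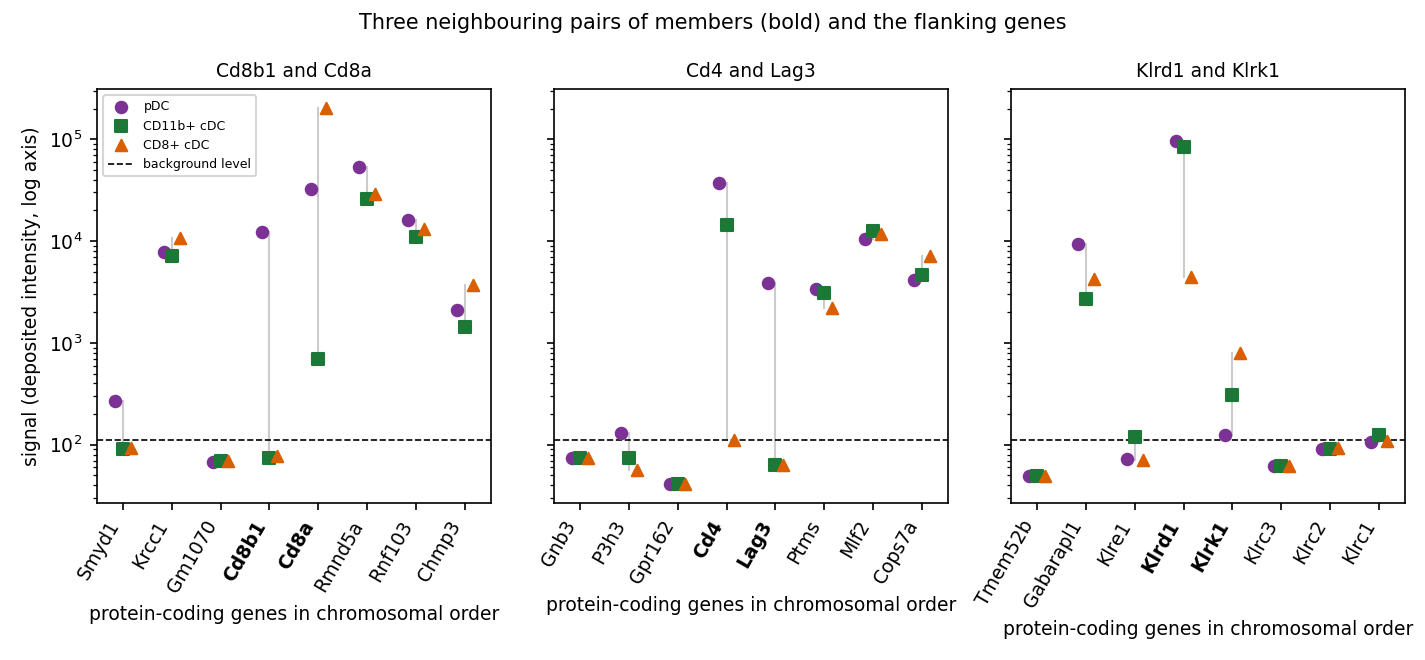
Signal (deposited intensity, log axis) of 3 neighbouring member pairs (bold) and the 3 protein-coding genes on each side, in chromosomal order without distances; circles are pDC, squares CD11b+ cDC and triangles CD8+ cDC, with background dashed. Cd8b1 and Lag3 stand above the line in pDC alone, next to Cd8a and Cd4, which are above it in other subsets as well.

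Of the other members, Cd28 lies beside Ctla4, read in CD8+ cDC alone, and Icos, which had its lowest signal in pDC (129) and its higher ones in both cDC subsets. On the other side of Cd28, Raph1 read 1267, 1463 and 654.5 in pDC, CD11b+ cDC and CD8+ cDC. Abi2 gave 5692, 10563 and 13285 and Cyp20a1 13008, 5008 and 20512.5, in the same order of arrays. Each of these genes differed 2-fold or more in at least 1 pair. Cd7 lies next to its ligand genes Sectm1b and Sectm1a, both below background, and next to Csnk1d (56555, 55021 and 61067), which did not differ 2-fold. Cd5 lies beside Cd6, a related receptor gene, which was below background on all 3 arrays. Other genes near Cd5 did give signal. Tmem132a read 52.7, 1105 and 496 in pDC, CD11b+ cDC and CD8+ cDC, and so peaked in CD11b+ cDC as Cd5 did. Slc15a3 (28889, 15445 and 1408) was lowest in CD8+ cDC, and Vps37c (21073, 21260 and 63012) was highest there.

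Genes with the most similar profile were ranked by the root mean square difference of centred log2 signals over the 3 arrays, among 2123 other genes that reached 4 times background and ranged 4-fold or more. With 3 arrays, many profiles come close by construction. Within 0.5 of Klrk1 lay 161 genes, of Cd5 117, of Lag3 72, of Cd28 62, of Cd8b1 38 and of Klrd1 29, against 2 for Cd4, 2 for Cd7 and 1 for Cd8a. Closest to Cd4 was Cd209a, a DC-SIGN family lectin gene, at 0.36 (21544 in pDC, 8650 in CD11b+ cDC, 100.4 in CD8+ cDC), then the RNA receptor gene Tlr7 at 0.49 and Tnfrsf13b, the TACI receptor gene, at 0.65. Closest to Cd8a was Pdia5, a protein disulfide isomerase gene, at 0.38 (9687, 381 and 66736), with Rhobtb1 at 0.78 and the adhesion gene Cadm1 at 0.84. Closest to Cd7 were Bcas1 at 0.40, Oasl2 at 0.45 and Atrnl1 at 0.55. Near Cd8b1 were Kank2, Hs3st1 and Dusp9 (0.01, 0.02 and 0.03), near Lag3 Paqr5, Gimap9 and Serpinc1 (0.02, 0.06 and 0.07) and near Cd28 Scrn1, Gpr174 and Arhgap24 (0.02, 0.02 and 0.04). Near Klrd1 were Tent5a, St8sia1 and Ifi27l2a (0.07, 0.08 and 0.09), near Klrk1 Taf4b, Tent5c and Naprt (0.02, 0.02 and 0.04), and near Cd5 Ccdc112, Ppbp and S100a9 (0.06, 0.08 and 0.10), the last also in the monocyte, macrophage and neutrophil list. For members below background on an array, these distances rest on the floor set there.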

How the data were processed

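The data are 1 linear intensity per probe set on 3 Affymetrix mouse arrays, as the authors deposited them. The submitters' processing notes name MAS5 with no version, and further scaling steps are not stated in the labels. The 22273 probe sets below background on all 3 arrays ranged by a median of 1.01-fold between arrays, and 1063 to 1073 values per array lay above 65535, so the values are not raw scanner readings. From the 1st to the 99th percentile the 3 arrays differed by at most 1.05-fold, with medians of 97.8, 97.8 and 99.6. The columns thus look matched in distribution, unlike plain MAS5 output, by a step not stated in the sources used here, and each fold is relative to that.

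Probe sets with 1 gene in the platform annotation (34958 of 45101) were named, and the probe set of highest mean log2 stood for its gene. Values were floored at background and log2 taken. Neighbours, promoters and motifs came from RefSeq tables of GRCm38.p6, and no other coordinates were used. Python 3.11.15 with pandas 2.3.3 and numpy 2.4.6 was used, and the calling rule was tested on simulated data. Members and gene lists were chosen with earlier results of these data known. All members are named, and of each list up to 4 genes per pair and direction with the largest differences, plus list genes of background or high level. Alternatives changed the background level, scaling, probe set, fold and floor. Control ratios of 3' to 5' probe sets were 5.71, 2.91 and 4.08 for Actb and 16.2, 9.68 and 17.6 for Gapdh in pDC, CD11b+ cDC and CD8+ cDC, lowest in CD11b+ cDC at both.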

Additional observations from a re-analysis of the deposited data

How the results depend on the processing

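The 21 called differences of members were recomputed under 11 alternatives, but by construction only 163 of the 231 values could have lost a call and only 100 could have changed sign (a smaller fold cannot end a call, and genes with 1 probe set repeat their value when the probe set rule changes). Of these, 10 lost the call and 0 changed sign, and quantile normalization had little to move, as the arrays were already nearly matched in distribution. The 10 concern Klrk1 and the Cd4 difference of pDC and CD11b+ cDC. Through the loss of Klrk1, the count of members higher in CD11b+ cDC than in pDC fell from 2 to 1 with background at the 99th percentile of the receptor probe sets, with a 4-fold rule and with arrays scaled on the median deviation of housekeeping genes (chosen after seeing the data). The count higher in CD8+ cDC than in pDC fell from 2 to 1 at that background level, and the count higher in CD8+ than in CD11b+ cDC from 2 to 1 at that level, with spike-in scaling, with scaling on the median of housekeeping genes and with a 4-fold rule. The remaining counts stayed within 1.5 times. Scaling on spike-ins moved the median of all genes to -0.30, 0.65 and 0.95 (log2, pDC minus CD11b+, pDC minus CD8+ and CD11b+ minus CD8+ cDC). Scaling on the median of housekeeping genes moved it to -0.36, 0.77 and 1.13. Scaling on their median deviation moved it to 0.55, 0.35 and -0.18, the opposite sign in the first and last pair. The housekeeping genes thus gave no single direction of shift, and called differences are relative to the bulk of genes. No paired analysis was possible because each subset has 1 array, and no array could be left out for the same reason. Signal over background leaves the folds of Lag3, Cd28, Cd8b1 and of Cd4 over CD8+ cDC as lower bounds, and the pDC value of Klrk1, 126, is close to the level of 111.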

Other observations

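Genes listed for shedding and protein traffic were read on all 3 arrays, 8 of 8 above background. The LAG-3 sheddase genes Adam10 (91163 in pDC, 48836 in CD11b+ cDC, 37724.5 in CD8+ cDC) and Adam17 (39745, 43368 and 54227) were among them, and Adam10 was 2.42-fold higher in pDC than in CD8+ cDC. Rab11a and the aminopeptidase gene Lap3 were higher in CD8+ cDC than in either other subset, by 3.31-fold and 3.88-fold over pDC. Whether they act on the members' proteins was not tested. Several of the DC genes measured as a check on the sorts followed the subset names. Siglech, Bst2 and Ccr9 were brightest in pDC, Itgam, Esam and Sirpa in CD11b+ cDC, and Xcr1 (10168, against 48.4 and 48.3), Itgae and Cd24a in CD8+ cDC. Itgam encodes CD11b, which named its sort, so its place is no check. The proteins that defined the pDC sort are not given, so whether the pDC genes are a check cannot be told. Batf3 (172, 30189 and 37688 in pDC, CD11b+ cDC and CD8+ cDC) and Zbtb46 (215, 19657 and 31850) were high in both cDC subsets. Neither differed 2-fold between them. Of 14 DC genes, 4 were higher and 6 lower in pDC than in CD11b+ cDC (15.0% and 14.3% of genes above background on either array).

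Of 3 measured erythroid genes, 2 exceeded background and 0 differed 2-fold in any pair. Slc4a1 read 13416, 14712 and 9687 in pDC, CD11b+ cDC and CD8+ cDC. Of 11 housekeeping genes, 1 was higher and 2 lower in pDC than in CD11b+ cDC (15.0% and 14.3% of genes above background on either array). Gusb read 230997 in CD8+ cDC, against 22885.5 in pDC and 15272 in CD11b+ cDC, a 15.1-fold range in a gene often used as a reference. Tfrc was 11.6-fold higher in pDC than in CD8+ cDC, Pgk1 3.21-fold lower, and Gapdh and Hprt were 2.18-fold and 2.02-fold lower in pDC than in CD11b+ cDC.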
